A study of Mus musculus with 12 samples.

Results

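The transcripts of 10 genes that write, read or erase N6-methyladenosine (m6A) were examined in mouse oocytes with and without the RNA-binding proteins ZAR1 and ZAR2. The genes were chosen by name: the writers Mettl3, Mettl14 and Wtap, the readers Ythdf1, Ythdf2, Ythdf3, Ythdc1 and Ythdc2, and the erasers Alkbh5 and Fto. All 10 were listed in the deposited table of 23230 genes, and all 10 reached 1 FPKM (a read density corrected for transcript length and library size) in at least 1 of 12 libraries, the filter that kept 11502 genes. The libraries came from C57BL6/ICR hybrid females that were either WT or carried CRISPR/Cas9 knockout alleles of both Zar1 and Zar2 (Zar1/2-null). Growing oocytes came from females that the sample labels give as 13.5 days old. Fully grown germinal vesicle (GV) oocytes were taken at 21 days of age, 44 h after PMSG, the gonadotropin that stimulates follicle growth. Ovulated oocytes, labelled MII for metaphase of the second meiotic division, were taken 16 h after hCG, the hormone that triggers ovulation. Each of the 6 groups (3 stages, 2 genotypes) held 2 libraries, and each library pooled 10 oocytes. The meiotic stage that the ovulated Zar1/2-null oocytes had reached was not measured in these libraries. The paper reports that such oocytes arrested in metaphase or telophase of the first meiotic division. Comparisons of MII libraries may therefore set unlike meiotic stages beside each other, and stage and genotype cannot be told apart there. The paper addressed this outside these libraries. By RT-qPCR, arrest in the first division with nocodazole did not affect the degradation of selected mRNAs. From this it proposes that the delayed decay came from the lack of ZAR1/2 and not from the arrest.

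m6A is a methyl mark on adenosines inside mRNA. A methyltransferase complex writes it, with METTL3 as the catalytic subunit, METTL14 as its RNA-binding partner and WTAP as the regulatory subunit. YTH-domain proteins read it in the nucleus (YTHDC1) or in the cytoplasm (YTHDF1, YTHDF2, YTHDF3 and YTHDC2), and the demethylases ALKBH5 and FTO remove it. In mouse oocytes, YTHDF2 is known for the turnover of maternal mRNA and YTHDC1 for the processing of nuclear transcripts. An oocyte is nearly silent in transcription once fully grown, so that its mRNA is a store built during growth and partly removed during maturation.

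Values are FPKM that the authors had scaled by the ERCC spike-in, synthetic RNA of which every lysate received the same amount. They therefore follow the amount of RNA per oocyte. The recovered scaling factors were 1 in both WT growing libraries, which were thus not scaled to each other, 0.779 to 0.862 in Zar1/2-null growing, 0.697 to 0.836 in WT GV and 0.533 to 0.583 in Zar1/2-null GV libraries. They were 0.225 to 0.228 in WT and 0.252 to 0.283 in Zar1/2-null MII libraries, so the scaling bears most on the change from GV to MII. The table held no read counts, and the counting error behind a value is not known. Replicates of a group ranked the kept genes alike (Spearman correlation from 0.973 to 0.978). With 10 oocytes pooled, fewer oocytes holding a transcript and less of it in each oocyte cannot be told apart.

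The targeted genes came first. Zar2, which the table lists as Zar1l, stood at 639 and 644 FPKM in WT growing libraries and at 17.5 and 13.2 FPKM in Zar1/2-null growing libraries. Zar1 stood at 603 and 725 FPKM in WT growing and at 407 and 460 FPKM in Zar1/2-null growing libraries, and in MII libraries it was higher in Zar1/2-null (190 and 194 FPKM) than in WT (83.6 and 72.4 FPKM). The Zar1 null allele is a short deletion with a stop codon near the start site, so most of its mRNA still counts and its level does not check the genotype. All 10 oocyte markers examined were above 0 in every library. Their summed level was 18399 to 19521 FPKM in WT and 16785 to 18411 FPKM in Zar1/2-null growing libraries, 11174 to 13295 against 9368 to 10395 FPKM at GV, and 2390 to 2730 against 5755 to 6794 FPKM at MII. The 12 granulosa and cumulus markers summed to 28.6 to 32.1 FPKM in WT and 14.0 to 21.9 FPKM in Zar1/2-null growing libraries, 17.2 to 19.4 against 13.4 to 15.5 FPKM at GV, and 5.14 to 5.52 against 7.26 to 8.49 FPKM at MII. Cyp19a1 and Nr5a2 made up most of these sums, Ptx3 was at 0 in every library, and Amh was above 0 in 1 library only, at 0.0317 FPKM. Immune markers summed to at most 3.24 FPKM, mostly Cd68, and both globin genes were at 0 throughout. The part of other cells in the differences that follow was not tested.

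In WT oocytes, Wtap was the most abundant of the 10 transcripts at every stage, and Alkbh5 came next, overlapping with Ythdf3 at MII. WT growing libraries held Wtap at 311 and 302 FPKM and Alkbh5, the eraser required for male fertility, at 94.2 and 93.8 FPKM. Ythdf3 followed at 59.6 and 52.9 FPKM and Ythdf2 at 47.6 and 45.6 FPKM. The catalytic writer Mettl3 (26.1 and 30.7 FPKM) and its partner Mettl14 (26.7 and 28.1 FPKM) overlapped in these libraries, with the nuclear reader Ythdc1 just below (22.5 and 20.9 FPKM). The lowest levels were those of Ythdf1 (6.09 and 5.91 FPKM), the helicase reader Ythdc2 (5.40 and 4.49 FPKM) and the eraser Fto (1.99 and 1.71 FPKM). No other neighbours in this order overlapped in WT growing oocytes. FPKM is per length of transcript, but capture and mapping may still differ between genes, so this order is a description. In WT GV libraries, Mettl14 (26.0 and 22.4 FPKM), Ythdf2 (24.8 and 19.3 FPKM) and Mettl3 (22.0 and 16.9 FPKM) overlapped as neighbours, and so did Mettl3 with Ythdc1 (19.2 and 18.8 FPKM). In WT MII libraries Wtap still stood at 162 and 141 FPKM, whereas Ythdf1, Ythdc2 and Fto were all between 0.274 and 0.627 FPKM and overlapped.

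**Figure D1:**
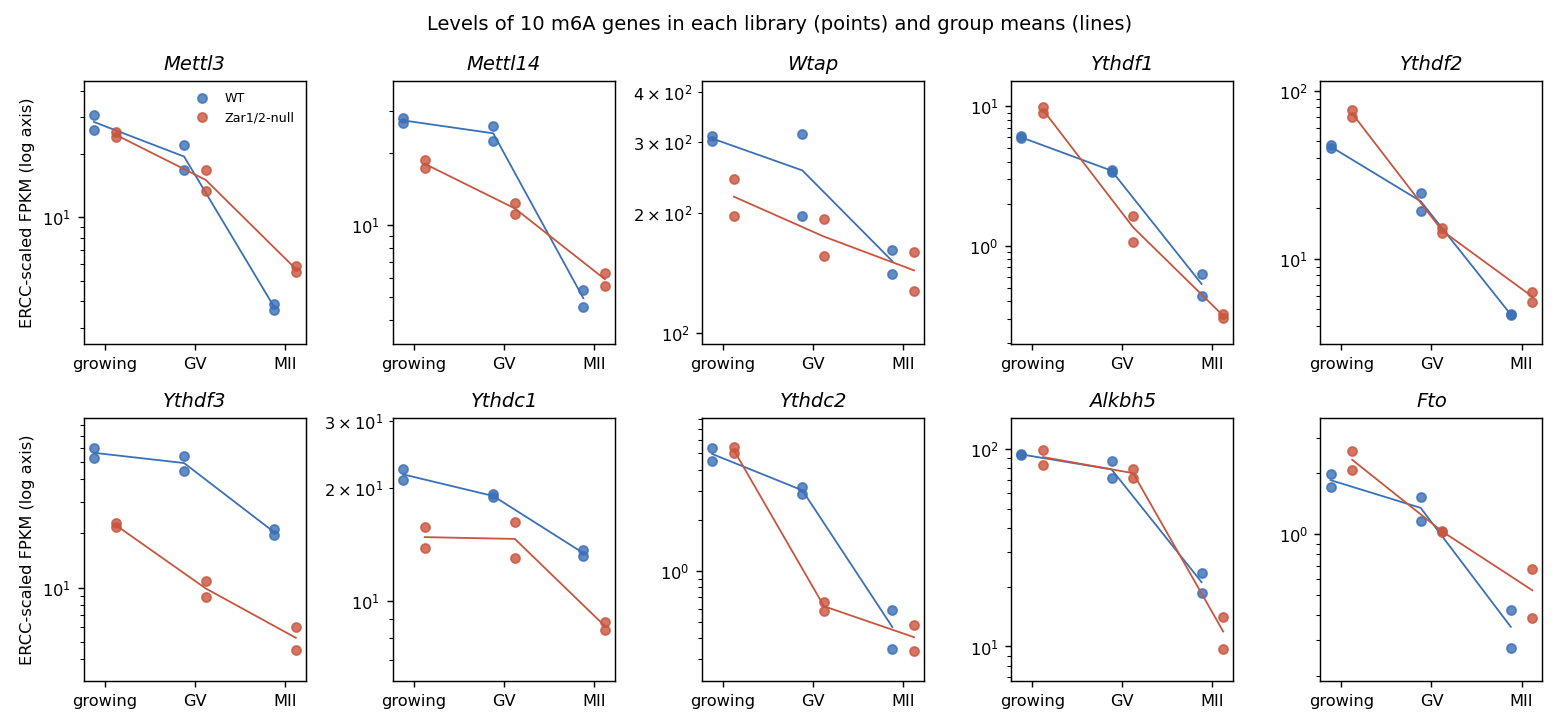
ERCC-scaled FPKM (log axis) of each of the 10 genes in each of the 12 libraries (points; blue, WT; red, Zar1/2-null) by stage, with lines through the group means. Ythdf3 is lower in Zar1/2-null than in WT libraries at all 3 stages, while Ythdf1 and Ythdf2 are higher in growing and lower in GV libraries.

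The members differ in their annotated transcripts. For each gene 1 transcript was taken, that with the longest coding sequence, and it may not be the form present in oocytes. In the GENCODE M1 annotation of NCBIM37 (mm9), the build the authors mapped to, Ythdf3 lies on chr3:16083183-16117035, Ythdf2 on chr4:131740827-131768218 and Ythdf1 on chr2:180639082-180655654. Mettl14 lies on chr3:123067563-123088908, Wtap on chr17:13159662-13185412 and Ythdc1 on chr5:87233246-87265684. Ythdf3 has a transcript of 5162 bases with a 3′ UTR of 3057 bases and 38.5% GC, against medians of 2700 bases, 824 bases and 49.7% over the 10609 kept genes with such a transcript. Ythdf2 and Ythdf1 have shorter 3′ UTRs, of 836 and 272 bases. GGACT, a common form of the motif at which the writer acts, occurs in 9 of the 10 member transcripts (all but Ythdc1) and in 89.8% of transcripts overall. Its density was 0.194 per kb in Ythdf3 and 2.43 per kb in Wtap, with a median of 1.03 per kb over all genes. The Ythdc1 transcript, of 2960 bases with 2211 coding and 749 in the 3′ UTR, is annotated without a 5′ UTR and may be incomplete.

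The oocyte reads signals near the end of the 3′ UTR when it lengthens poly(A) tails during maturation, which is why the copies of this signal in the members are shown. The cytoplasmic polyadenylation element was searched as TTTTAT or TTTTAAT, on the transcript strand only, in the last 300 bases of the 3′ UTR. It was found in 3 of the 8 members whose 3′ UTR is at least this long, and in 38.6% of 8104 genes of the same kind (TTTTAT in 31.3%, TTTTAAT in 12.3%). Each line gives 30 bases of the mRNA strand, 5′ to 3′, from NCBIM37, with the element in capitals.
Mettl14 (element starting 45 bases from the transcript end): ggtaactccttTTTTATtttgctataactt
Wtap (the copy 14 bases from the end): aaacctaaataaacatTTTTATtacgactc
Ythdc1 (185 bases from the end): tgctatctaatTTTTAATctttttaaataa
Wtap had 3 copies of TTTTAT in its window, Mettl14 had 1, and Ythdc1 had 1 copy of TTTTAAT. The window of Ythdf3, the transcript that differed most between the genotypes, held neither form. The pentamer ATTTA, the core of AU-rich elements, was in the window of 4 members (Ythdf3, Mettl14, Ythdc2 and Alkbh5) and of 45.7% of genes. A match is a description of the letters and not a tested site.

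Counted from gene start to gene end, introns included, some of these genes share bases with a gene on the other strand. These were Mettl3 with Tox4 (1724 bases), Mettl14 with Sec24d (991 bases) and Fto with Gm3235 (8282 bases). The Fto transcript has 3557 bases, so its shared span takes in introns. The sources do not state that the libraries keep the strand. Overlap of exons was not computed, so whether reads from the other gene enter the values of these members is not known.

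The first comparison asked which of the transcripts differed between Zar1/2-null and WT growing oocytes. Ythdf3, a cytoplasmic reader, was lower, and the related readers Ythdf1 and Ythdf2 were higher. Of the 10 genes, 2 were called higher and 3 lower by limma on log2(FPKM + 1) at a Benjamini-Hochberg adjusted p of 0.05, against 10.6% and 24.4% of all genes tested. The members' median log2 fold change was -0.12, beside -0.16 over all genes. Libraries of the 2 genotypes did not overlap for 8 of the members, 3 of them higher and 5 lower in Zar1/2-null, beside 22.4% and 47.4% of all genes.

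Among the readers, Ythdf3 stood at 21.8 and 22.8 FPKM in Zar1/2-null growing oocytes, against 59.6 and 52.9 FPKM in WT. Both Zar1/2-null libraries were well below both WT libraries, with a mean of 39.6% of WT. The log2 fold change was -1.30 ± 0.17 (standard error; limma, adjusted p = 0.000244). Ythdf2, the reader tied to mRNA decay, stood at 76.5 and 70.1 FPKM in Zar1/2-null against 47.6 and 45.6 FPKM in WT libraries (log2 fold change 0.64 ± 0.15, limma adjusted p = 0.00702). Ythdf1, tied to translation in other cells, stood at 9.04 and 9.84 FPKM against 6.09 and 5.91 FPKM (0.58 ± 0.14, limma adjusted p = 0.00911). Both were thus 1.57 times their WT mean, with no overlap of libraries. Ythdc1 was lower, at 15.7 and 13.9 FPKM against 22.5 and 20.9 FPKM (log2 fold change -0.52 ± 0.14, limma adjusted p = 0.0154). Ythdc2 overlapped between the genotypes, at 4.99 and 5.43 FPKM in Zar1/2-null and 5.40 and 4.49 FPKM in WT libraries.

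Among the writers of growing oocytes, Mettl14 was the transcript that passed the test. It stood at 17.4 and 18.7 FPKM in Zar1/2-null and 26.7 and 28.1 FPKM in WT libraries, 65.8% of the WT mean (log2 fold change -0.58 ± 0.14, limma adjusted p = 0.00970). Mettl3 stood at 25.3 and 24.1 FPKM against 26.1 and 30.7 FPKM, and Wtap at 243 and 196 FPKM against 311 and 302 FPKM. Neither passed (limma adjusted p = 0.406 and 0.118), although neither gene overlapped between the genotypes. Wtap was called lower in the fit to the 4 growing libraries alone (0.0372). Of the erasers, Alkbh5 overlapped (98.8 and 83.5 FPKM against 94.2 and 93.8 FPKM) and Fto stood at 2.08 and 2.59 FPKM against 1.99 and 1.71 FPKM, with limma adjusted p of 0.866 and 0.261. No member was more than 3-fold apart by the study's rule on group means (means under 1 FPKM set to 1), by which 0.982% of genes were higher and 3.54% lower. Each comparison was repeated under 2 other scalings, with the ERCC factor divided out (no ERCC scaling) and with each library set to the same median (median scaling). They moved the median of all genes by 0.26 and 0.27 in this comparison, by 0.38 and 0.48 at GV and by -0.18 and -0.17 at MII on the log2 scale. The calls for Ythdf1, Ythdf2 and Ythdf3 held under both, whereas those for Mettl14 and Ythdc1 were lost under both (limma adjusted p of 0.162 to 0.266). Mettl14 also lost its call without WT growing replicate 2 (0.0600) or Zar1/2-null growing replicate 1 (0.0507), Ythdc1 without WT growing replicate 1 (0.0929) or Zar1/2-null growing replicate 2 (0.113), and Ythdf1 without Zar1/2-null growing replicate 2 (0.0595).

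**Figure D2:**
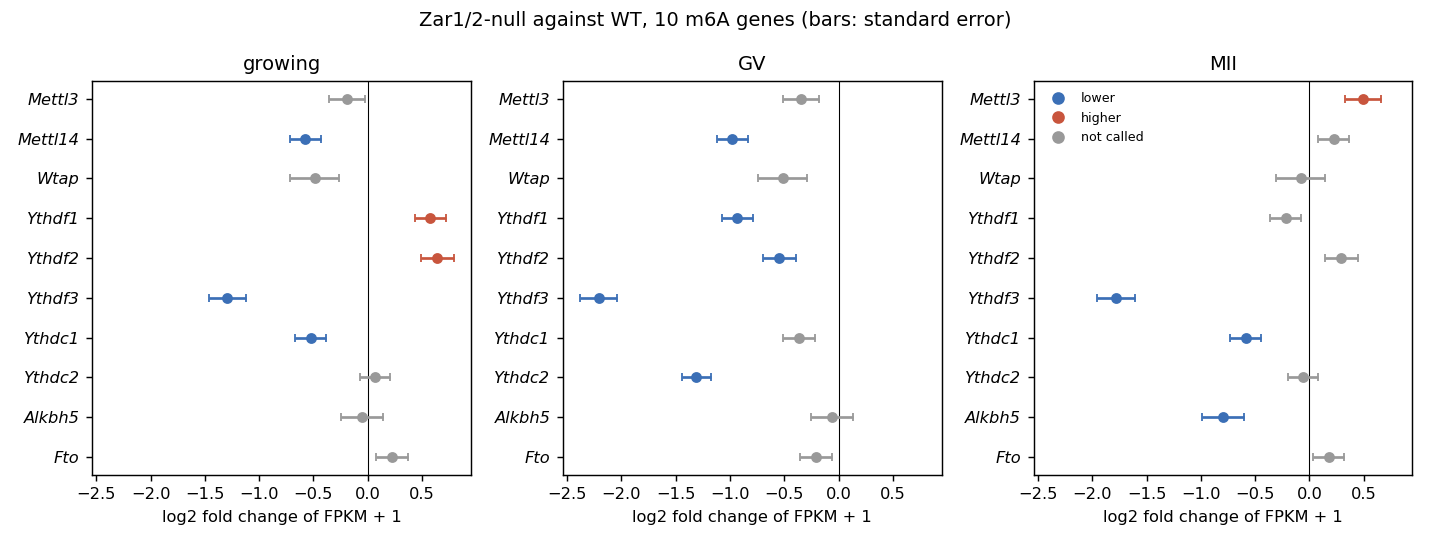
Log2 fold change of FPKM + 1, Zar1/2-null against WT, for the 10 genes at each stage (points, limma estimates; bars, standard error; blue, called lower; red, called higher; grey, not called). Ythdf3 stands farthest to the left at all 3 stages (-1.30, -2.21 and -1.78).

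In fully grown GV oocytes, the same comparison called 5 members lower and none higher. The 5 were Ythdf3, Ythdc2, Mettl14, Ythdf1 and Ythdf2, so 4 of 5 readers and 1 of 3 writers were lower and neither eraser passed the test. The background at this stage was wide, with 40.6% of all genes called lower and 2.83% higher by limma. Members had a median log2 fold change of -0.53, beside -0.38 over all genes. Libraries did not overlap for 9 of 10 members, all lower in Zar1/2-null, beside 63.6% of genes lower and 6.79% higher.

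Ythdf3 stood at 10.9 and 8.87 FPKM in Zar1/2-null GV oocytes against 54.3 and 44.4 FPKM in WT, 20.0% of the WT mean. Its log2 fold change of -2.21 ± 0.17 (limma adjusted p = 1.16e-05) was the largest of the 10 at this stage. Ythdc2, a reader with a helicase domain that germ cells need to enter and keep to meiosis, fell below 1 FPKM, with 0.578 and 0.661 FPKM in Zar1/2-null against 3.16 and 2.87 FPKM in WT libraries (-1.31 ± 0.14, limma adjusted p = 5.95e-05). These 2 readers were the members more than 3-fold lower by group means, Ythdf3 by 4.99-fold and Ythdc2 by 3.01-fold after its mean was set to 1 FPKM, against 4.2% of genes lower and 0.461% higher. Ythdf1 stood at 1.64 and 1.07 FPKM against 3.53 and 3.39 FPKM (-0.93 ± 0.14, limma adjusted p = 0.000510). Ythdf2 stood at 15.2 and 14.2 FPKM against 24.8 and 19.3 FPKM (-0.54 ± 0.15, limma adjusted p = 0.0133). Ythdf1 and Ythdf2, which were above WT in growing oocytes, were thus below WT here. Ythdc1 stood at 16.3 and 13.0 FPKM against 19.2 and 18.8 FPKM and did not pass (-0.36 ± 0.14, limma adjusted p = 0.0593), but it was called lower without the filter on low values (0.0489) and with the replicate number as a block (0.0476).

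Of the writers and erasers at GV, Mettl14 alone was called. It stood at 12.4 and 11.1 FPKM in Zar1/2-null GV oocytes against 26.0 and 22.4 FPKM in WT, 48.6% of the WT mean (log2 fold change -0.98 ± 0.14, limma adjusted p = 0.000420). Its partner Mettl3 stood at 13.3 and 16.8 FPKM against 22.0 and 16.9 FPKM, and Wtap at 156 and 192 FPKM against 314 and 196 FPKM. For both, 1 WT library was close to the Zar1/2-null libraries, and the limma adjusted p was 0.114 and 0.0861. Alkbh5 overlapped (79.4 and 71.7 FPKM against 86.6 and 71.3 FPKM), and Fto stood at 1.04 and 1.03 FPKM against 1.16 and 1.54 FPKM (limma adjusted p of 0.822 and 0.266). Without the ERCC scaling the calls for Ythdf3, Ythdc2, Mettl14 and Ythdf1 held and that for Ythdf2 was lost (log2 fold change -0.12), and median scaling also lost Ythdf1 (limma adjusted p = 0.0511). Ythdf2 lost its call without WT GV replicate 1 (0.115) or Zar1/2-null GV replicate 2 (0.0504) and in the fit to the 4 GV libraries alone (0.0769), while Mettl3 (0.0448) and Wtap (0.0156) gained one without WT GV replicate 2 and Ythdc1 (0.0230) without Zar1/2-null GV replicate 1.

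In ovulated oocytes labelled MII, Ythdf3, Ythdc1 and Alkbh5 were lower in Zar1/2-null than in WT libraries, and Mettl3 was higher. This stage had the opposite background, with 21.5% of genes called higher and 10.3% lower by limma, so that 1 member of 10 higher and 3 of 10 lower stood against more genes higher than lower. Members had a median log2 fold change of -0.07 beside 0.06 over all genes. Libraries did not overlap for 3 members that were higher and 4 that were lower, beside 43.5% and 27.8% of genes.

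Ythdf3 stood at 4.47 and 6.03 FPKM in Zar1/2-null MII against 21.1 and 19.6 FPKM in WT MII libraries, 25.8% of the WT mean (log2 fold change -1.78 ± 0.17, limma adjusted p = 1.01e-05). It was the only member more than 3-fold apart at this stage, 3.87-fold lower, where 1.32% of genes were lower and 7.49% higher by that rule. Ythdc1 stood at 8.79 and 8.40 FPKM against 13.1 and 13.7 FPKM (-0.59 ± 0.14, limma adjusted p = 0.00818). Alkbh5 stood at 14.0 and 9.77 FPKM against 23.6 and 18.7 FPKM, 56.2% of the WT mean (-0.79 ± 0.19, limma adjusted p = 0.00851). MII was the stage at which an eraser passed the test. Mettl3 stood at 5.53 and 5.85 FPKM against 3.89 and 3.62 FPKM (0.49 ± 0.17, limma adjusted p = 0.0426). The other members did not pass: Mettl14 stood at 5.57 and 6.31 FPKM against 4.53 and 5.37 FPKM, Ythdf2 at 6.34 and 5.57 FPKM against 4.64 and 4.68 FPKM, and Wtap overlapped at 159 and 128 FPKM against 162 and 141 FPKM. Ythdf1, Ythdc2 and Fto were all under 1 FPKM in both genotypes.

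The call for Mettl3 at MII was the least stable of these. It was lost without the ERCC scaling (limma adjusted p = 0.0806), with median scaling (0.0637), without the filter on low values (0.0661) and when any 1 of the 4 MII libraries was left out (0.104 to 0.168). Alkbh5 lost its call without WT MII replicate 1 (0.0801) or Zar1/2-null MII replicate 2 (0.0884), and Ythdc1 without Zar1/2-null MII replicate 2 (0.0535). Both were called lower under the 2 other scalings, and Ythdf1 was then called lower too (log2 fold change -0.61 and -0.49). With the factor divided out, Ythdf1 rose from 0.627 and 0.438 FPKM to 2.79 and 1.92 FPKM in WT MII libraries. The 1 FPKM added before the logarithm stayed the same, so this call mixes the scaling with the weight of that addition. For Ythdf3, the call held at each stage in all 12 alternative fits. Its log2 fold change ranged from -1.38 to -0.99 in growing, from -2.35 to -1.67 in GV and from -2.15 to -1.60 in MII oocytes, and the highest adjusted p over these fits was 0.00398, 0.000299 and 0.000265.

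Because the scaling moves all genes of a library together, the 3 cytoplasmic readers of the YTHDF family were also set against each other inside each library. Ratios of this kind do not depend on the ERCC factor; they were chosen after the values had been seen and are given with no test. In WT growing libraries, Ythdf3 made up 52.6% and 50.7% of the summed Ythdf1, Ythdf2 and Ythdf3 level. In Zar1/2-null growing libraries it made up 20.3% and 22.2%, and Ythdf2 made up 71.3% and 68.2%. At GV the share of Ythdf3 was 65.7% and 66.2% in WT and 39.3% and 36.8% in Zar1/2-null libraries. At MII it was 80.0% and 79.3% in WT and 40.2% and 50.7% in Zar1/2-null libraries. The share of Ythdf3 was thus higher at each later stage in WT, and in Zar1/2-null it stayed under the WT share at every stage. In other terms, WT libraries held more Ythdf3 than Ythdf2 at all stages, with ratios of 1.25 and 1.16, then 2.19 and 2.30, then 4.54 and 4.19. The Zar1/2-null ratios were 0.285 and 0.325, then 0.717 and 0.627, then 0.706 and 1.08.

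**Figure D3:**
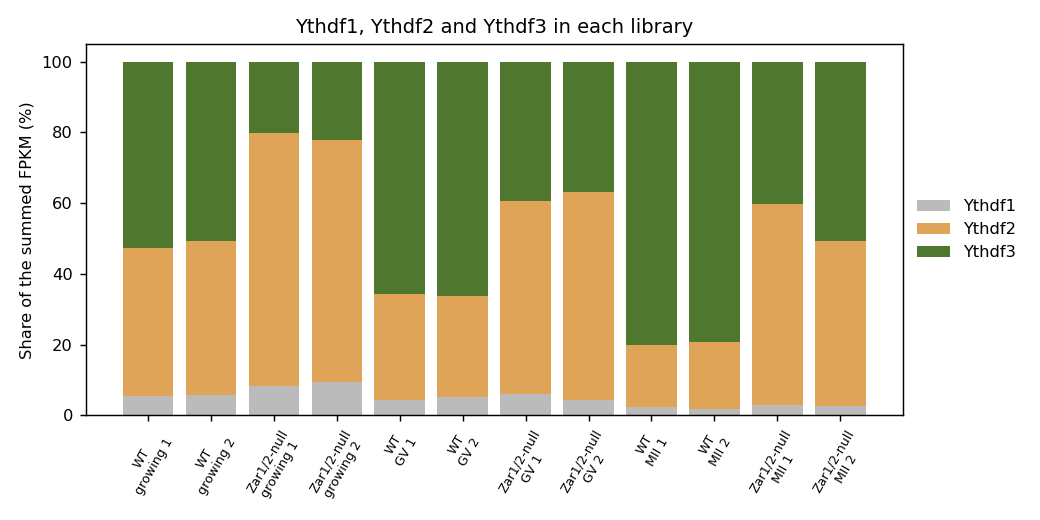
Share (%) of Ythdf1 (grey), Ythdf2 (orange) and Ythdf3 (green) in their summed FPKM, 1 bar for each of the 12 libraries. Ythdf3 takes 50.7% to 80.0% in WT and 20.3% to 50.7% in Zar1/2-null libraries.

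The sum of the 3 readers differed between genotypes less in growing oocytes than later. It was 113 and 104 FPKM in WT and 107 and 103 FPKM in Zar1/2-null growing libraries, and 82.6 and 67.1 FPKM against 27.7 and 24.1 FPKM at GV. In MII libraries it was 26.3 and 24.7 FPKM in WT and 11.1 and 11.9 FPKM in Zar1/2-null. Unlike the ratios, this sum depends on the ERCC factor, which was 1 in WT growing and 0.779 to 0.862 in Zar1/2-null growing libraries. With the factor divided out, both Zar1/2-null growing sums were above both WT growing sums. For the writers, the ratio of Mettl3 to its partner Mettl14 was 0.977 and 1.09 in WT growing and 1.46 and 1.29 in Zar1/2-null growing libraries. It was 0.849 and 0.753 against 1.08 and 1.51 at GV, and 0.859 and 0.673 against 0.994 and 0.927 at MII. In every stage both Zar1/2-null ratios were thus above both WT ratios. The ratio of Alkbh5 to Fto ranged from 14.6 to 86.2 and overlapped between genotypes at the growing and GV stages. At MII it was 86.2 and 44.2 in WT and 36.3 and 14.6 in Zar1/2-null libraries.

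The second set of comparisons asked how the transcripts changed from growing to GV oocytes within a genotype. They share the growing and GV libraries with the comparisons above. In WT oocytes, 4 members were lower at GV and 0 higher, against 28.7% and 2.77% of genes. Ythdf2 changed most, from 47.6 and 45.6 FPKM to 24.8 and 19.3 FPKM (log2 fold change -1.06 ± 0.15, limma adjusted p = 0.00122). Ythdf1 (-0.65), Ythdc2 (-0.56) and Mettl3 (-0.53) were also called, with limma adjusted p of 0.00809, 0.0127 and 0.0339. The members' median of -0.29 equalled the median of all genes at 2 decimals. Of these calls, that for Ythdf2 alone held under the 2 other scalings, which moved the median of all genes by 0.34 and 0.35. Mettl3 lost its call without WT growing replicate 1 (0.0564), WT growing replicate 2 (0.200) or WT GV replicate 2 (0.236). Ythdc2 lost it without WT growing replicate 1 (0.0728) or WT GV replicate 2 (0.0821), and Ythdf1 without WT GV replicate 2 (0.0546).

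In Zar1/2-null oocytes, 7 members were lower at GV than in growing oocytes and 0 higher, against 55.9% and 4.76% of genes. The 3 largest changes were in readers. Ythdf2 went from 76.5 and 70.1 FPKM to 15.2 and 14.2 FPKM (log2 fold change -2.24 ± 0.15, limma adjusted p = 1.93e-06), and Ythdf1 from 9.04 and 9.84 FPKM to 1.64 and 1.07 FPKM (-2.16 ± 0.14, limma adjusted p = 1.67e-06). Ythdc2 went from 4.99 and 5.43 FPKM to 0.578 and 0.661 FPKM (-1.94 ± 0.14, limma adjusted p = 2.57e-06). Zar1/2-null GV libraries thus held 20.0%, 14.4% and 11.9% of the growing level of these readers, where WT GV libraries held 47.3%, 57.7% and 60.9%. Ythdf3 (-1.10), Fto (-0.71), Mettl3 (-0.69) and Mettl14 (-0.58) were also called lower, whereas Wtap, Ythdc1 and Alkbh5 were not. The members' median log2 fold change was -0.70, beside -0.50 over all genes. Without the ERCC scaling, a shift of 0.47 in the median of all genes, Ythdf1, Ythdf2, Ythdc2 and Ythdf3 were still called lower, and Ythdc1, with a log2 fold change of -0.02 as deposited, was called higher (0.51). Under median scaling Ythdf3 was not called (limma adjusted p = 0.0518).

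The difference between the genotypes in this change was tested by an interaction term. It was called for 4 members, all readers, which decreased more in Zar1/2-null oocytes: Ythdf1 by -1.51 ± 0.20 on the log2 scale (limma adjusted p = 0.00161), Ythdc2 by -1.37 ± 0.19 (0.00223), Ythdf2 by -1.19 ± 0.21 (0.00649) and Ythdf3 by -0.91 ± 0.24 (0.0323). No member was called in the other direction, and the background was 11.3% lower and 2.58% higher. The difference was still called for Ythdf1, Ythdf2 and Ythdc2 under the other 2 scalings. Ythdf3 was not called under these scalings (0.123 and 0.163) or with a pseudocount of 0.1 FPKM (0.0504). It also lost its call when any 1 of the 4 growing libraries (0.0553 to 0.0972), WT GV replicate 1 (0.10) or Zar1/2-null GV replicate 2 (0.0761) was left out. None of the writers or erasers passed this test (limma adjusted p from 0.194 to 0.987).

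From GV to MII, all 10 members were lower in WT oocytes, as were 93.4% of genes tested, with 0.104% higher. Mettl3 went from 22.0 and 16.9 FPKM to 3.89 and 3.62 FPKM (log2 fold change -2.09 ± 0.17, limma adjusted p = 2.89e-07), and Mettl14 from 26.0 and 22.4 FPKM to 4.53 and 5.37 FPKM (-2.08 ± 0.14, limma adjusted p = 8.40e-08). Ythdf2 changed by -2.01 ± 0.15 and Alkbh5 by -1.85 ± 0.19. The catalytic pair of writers thus kept 19.3% and 20.5% of their GV level, while Ythdc1 (13.1 and 13.7 FPKM at MII) kept 70.6% and Wtap 59.3%. The members' median was -1.50, beside -1.28 over all genes. The call for Wtap was lost without WT GV replicate 1 (0.132) or WT MII replicate 2 (0.0654).

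In Zar1/2-null oocytes, 8 members were lower at MII than at GV, against 68.7% of genes, and 0 higher, against 0.209%. Wtap and Ythdc2 did not pass (limma adjusted p = 0.288 and 0.201). Alkbh5 changed most, from 79.4 and 71.7 FPKM to 14.0 and 9.77 FPKM (log2 fold change -2.59 ± 0.19, limma adjusted p = 3.66e-07), and kept 15.8% of its GV level. Mettl3 kept 37.8% and Mettl14 50.6%, with log2 fold changes of -1.25 ± 0.17 and -0.88 ± 0.14. The members' median was -0.82, beside -0.72 over all genes. Fto lost its call without Zar1/2-null GV replicate 1 (0.0722), GV replicate 2 (0.0691) or MII replicate 1 (0.201).

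These maturation changes depend on the ERCC scaling more than any other comparison here. Without it, the median of all genes moved up by 1.12 on the log2 scale in WT and by 0.69 in Zar1/2-null oocytes, and with median scaling by 1.52 and 0.96. In WT, Wtap was then called higher at MII than at GV (log2 fold change 1.03 without ERCC scaling, 1.39 with median scaling), as was Ythdc1 (1.22 and 1.53). Ythdf3 stood at 0.48 without ERCC scaling (limma adjusted p = 0.0503) and was called higher with median scaling (0.82, limma adjusted p = 0.00192). The number of members called lower in WT went to 5 without ERCC scaling and 0 with median scaling. In Zar1/2-null oocytes Wtap was also called higher under both (0.78 and 1.06), and Alkbh5 was the member called lower in every scaling (-1.60 and -1.31). Per oocyte, as the spike-in measures it, all 10 were lower at MII in WT. Relative to the other transcripts of a library, Wtap and Ythdc1 were called higher under both other scalings and Ythdf3 under median scaling. With oligo-dT priming, a change in poly(A) tail length may enter these values and those between genotypes at MII. The part of tail length was not tested.

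**Figure D4:**
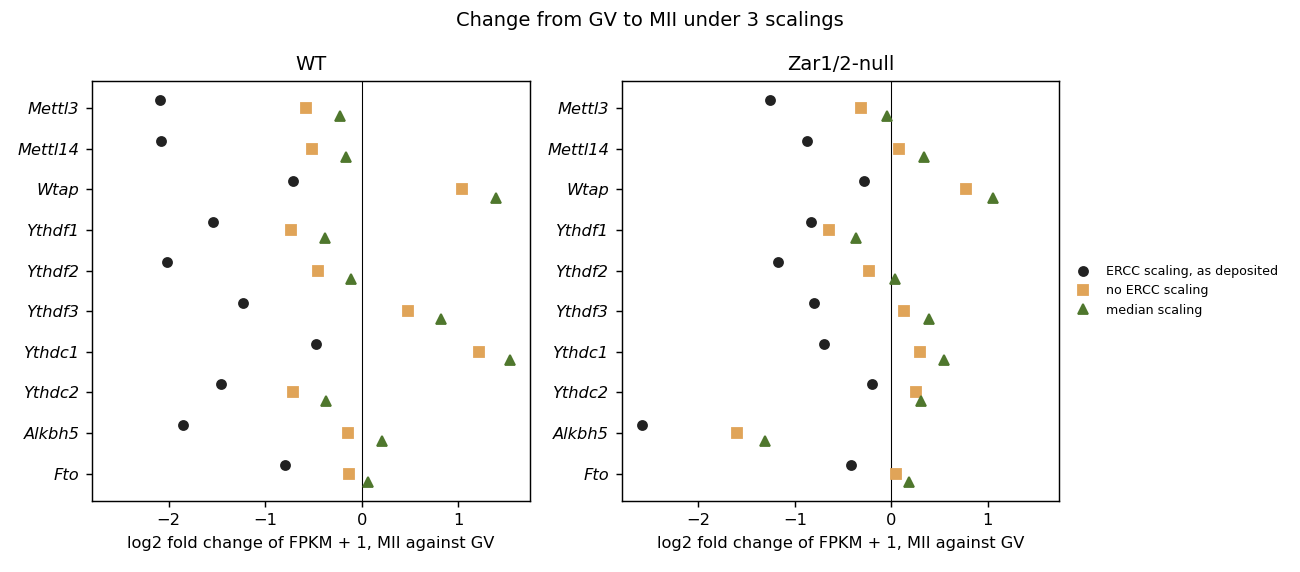
Log2 fold change of FPKM + 1 from GV to MII for the 10 genes in WT (left) and Zar1/2-null (right) under the deposited ERCC scaling (black circles), without it (orange squares) and with median scaling (green triangles). In WT every member is below 0 with ERCC scaling (-2.09 to -0.47), while Wtap and Ythdc1 stand above 1 under the other 2 scalings.

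The interaction term for maturation was called for 5 members, which decreased less in Zar1/2-null than in WT oocytes, against 33.9% of genes, and for 0 that decreased more, against 0.643%. The differences were 1.25 ± 0.19 for Ythdc2 (limma adjusted p = 0.000625), 1.20 ± 0.20 for Mettl14 (0.00108), 0.84 ± 0.21 for Ythdf2 (0.0112), 0.84 ± 0.24 for Mettl3 (0.0191) and 0.71 ± 0.20 for Ythdf1 (0.0188). Their median over the 10 members was 0.57, beside 0.48 over all genes. The GV libraries enter this term and that for growth. In Zar1/2-null GV libraries Ythdc2 (0.578 and 0.661 FPKM) and Ythdf1 (1.64 and 1.07 FPKM) were already low. At MII both were under 1 FPKM in both genotypes. They thus had little room to decrease in Zar1/2-null oocytes on the scale of log2(FPKM + 1), and their terms cannot show a smaller loss during maturation. Alkbh5 went the other way without passing (-0.73 ± 0.27, limma adjusted p = 0.0583), and passed with the replicate number as a block (0.0184). Without ERCC scaling 1 of the 5 calls held (Ythdc2) and with median scaling 0, while Alkbh5 and Ythdc1 were called in the other direction under both. Mettl3 lost its call without WT GV replicate 1 (0.0755), Zar1/2-null GV replicate 1 (0.0572), WT MII replicate 2 (0.0542) or Zar1/2-null MII replicate 2 (0.0581). Ythdf1 lost it without WT GV replicate 1 (0.0557), WT MII replicate 2 (0.0645) or either Zar1/2-null MII library (0.0642 and 0.0530) and with a pseudocount of 0.1 FPKM (0.0978), and Alkbh5 gained a call without Zar1/2-null MII replicate 1 (0.0272).

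Other genes of the m6A pathway were taken from a list of 20, of which 18 passed the filter (Igf2bp1 and Prrc2a were under 1 FPKM in every library). In growing oocytes, 1 of the 18 was called higher in Zar1/2-null and 8 lower, beside 10.6% and 24.4% of all genes, with a median log2 fold change of -0.40. In GV oocytes 0 were higher and 11 lower, beside 2.83% and 40.6%, with a median of -0.56. In MII oocytes 2 were higher and 5 lower, beside 21.5% and 10.3%, with a median of -0.21. The medians of all genes were -0.16, -0.38 and 0.06. Hnrnpa2b1, a nuclear RNA-binding protein proposed as an m6A reader, was called lower at each stage. It stood at 49.6 and 48.4 FPKM in Zar1/2-null growing against 86.6 and 77.5 FPKM in WT, at 36.3 and 32.2 FPKM against 80.6 and 71.2 FPKM at GV, and at 23.6 and 24.4 FPKM against 40.0 and 46.4 FPKM at MII. Its log2 fold changes were -0.73, -1.13 and -0.82 (limma adjusted p = 0.00297, 0.000208 and 0.00116). Hnrnpc, whose binding sites m6A can open, was also called lower at each stage (-0.59, -0.90 and -1.21), and so was Mettl16, which methylates U6 and the mRNA for S-adenosylmethionine synthetase (-0.84, -0.72 and -0.41). The call for Mettl16 at MII was lost without the filter (limma adjusted p = 0.0723), in the fit to the 4 libraries of the stage (0.0517) and without any 1 MII library (0.0604 to 0.250), and that at GV under both other scalings (0.143 and 0.210). Hnrnpc lost its call in growing oocytes under both other scalings (0.132 and 0.196), without the filter (0.0556) and without WT replicate 1 (0.171), WT replicate 2 (0.0881) or Zar1/2-null replicate 2 (0.230), and at GV with median scaling (0.140).

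Of the other subunits of the writer complex, Virma was lower in growing and GV oocytes (-0.76 and -0.70) and Zc3h13 likewise (-0.44 and -0.50). Rbm15 was lower at GV (-1.01). Cbll1 was lower at GV and MII (-1.36 and -0.82), where its MII level was at most 1.10 FPKM. Rbm15b was called higher in growing oocytes (0.48, limma adjusted p = 0.0434). Outside the complex, Zcchc4 was called lower in growing and GV oocytes (-0.93 and -0.63), Mettl4 at GV and MII (-0.57 and -0.66), Mettl5 and Rbmx in growing oocytes (-0.74 and -0.45) and Igf2bp2 and Fmr1 at GV (-0.79 and -0.41). Rbmx stood at 1.41 and 0.969 FPKM in WT growing libraries and at 0.553 and 0.633 FPKM in Zar1/2-null growing libraries. It passed the filter only through WT growing replicate 1, so its call as lower in Zar1/2-null is not independent of the filter. Pcif1, which methylates the first adenosine after the cap, was higher at MII, at 3.17 and 3.22 FPKM against 1.09 and 1.20 FPKM (0.97 ± 0.15, limma adjusted p = 0.000485). Trmt112, the partner of METTL5, was also called higher at MII (0.42, limma adjusted p = 0.0454). As with the members, the calls move with the scaling: without ERCC scaling 4 of the 18 were called higher and 2 lower in growing oocytes, and 4 lower at GV. The GV calls for Virma, Zc3h13, Zcchc4, Mettl4, Igf2bp2 and Fmr1 were lost under both other scalings. Some calls also rested on single libraries, with limma adjusted p of 0.0589 to 0.285 once 1 was left out. In growing oocytes the call was lost without any 1 library for Zc3h13, without either WT library or Zar1/2-null replicate 2 for Rbm15b and Mettl5, and without either Zar1/2-null library for Rbmx. At GV it was lost without replicate 2 of either genotype for Zc3h13, without replicate 1 of either for Zcchc4, without WT replicate 1 or either Zar1/2-null library for Mettl4, and without either WT library or Zar1/2-null replicate 2 for Fmr1. At MII it was lost without either WT library or Zar1/2-null replicate 1 for Trmt112, and without replicate 2 of either genotype for Mettl4. Hnrnpa2b1 was called lower at all 3 stages under these scalings too.

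**Figure D5:**
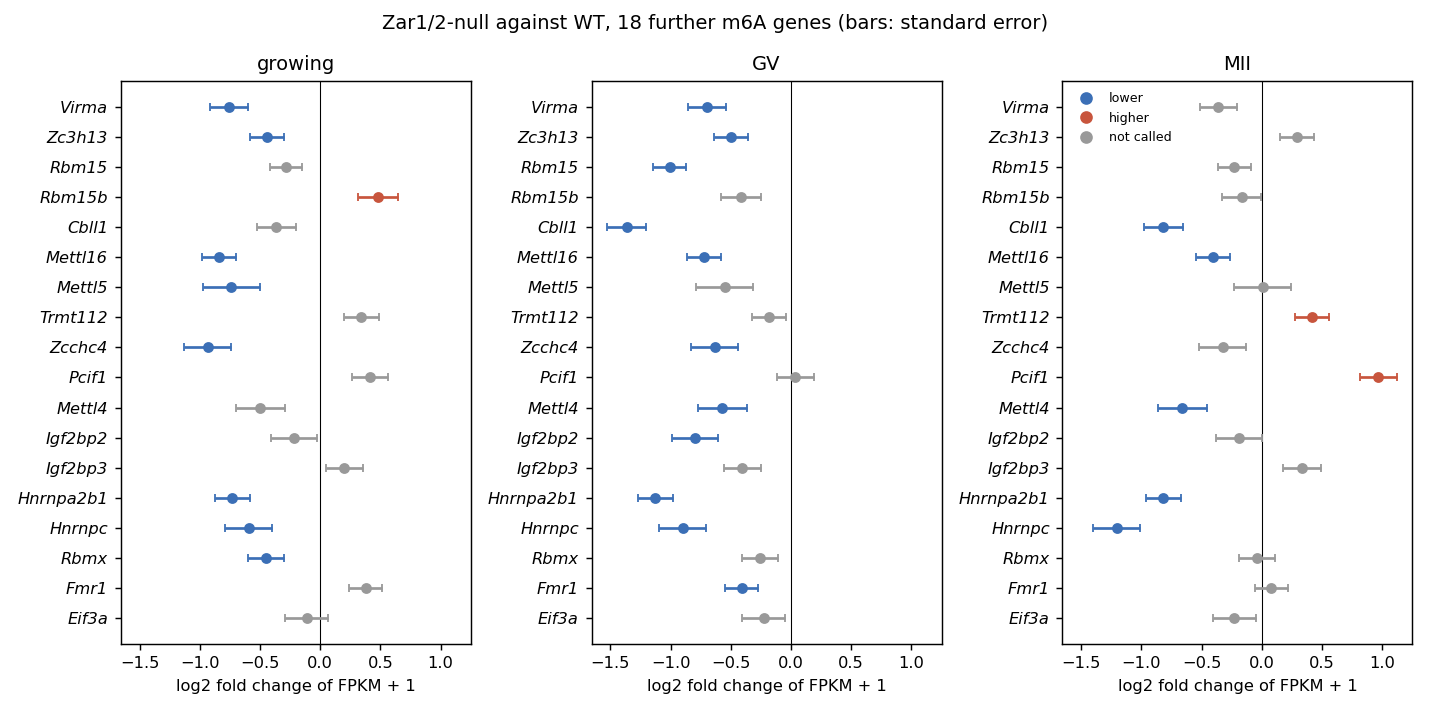
Log2 fold change of FPKM + 1, Zar1/2-null against WT, for the 18 further m6A genes that passed the filter at each stage (points, limma estimates; bars, standard error; blue, called lower; red, called higher; grey, not called). With the deposited scaling Hnrnpa2b1, Hnrnpc and Mettl16 are called lower at all 3 stages, and Pcif1 (0.97) is highest at MII.

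Ythdf3 had the largest absolute log2 fold change between the genotypes among the members at every stage. The 5 genes whose log2(FPKM + 1) followed it most closely over the 12 libraries, among 4325 with a mean of at least 10 FPKM, were Hnrnpa2b1 (Pearson r = 0.989), Fam199x (0.987), Ppp4r2 (0.986), Smc6 (0.985) and Rrm2b (0.985). These correlations are a description. The libraries share 3 stages and a common scaling, so that many genes rise and fall together across them.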

How the data were processed

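RNA of 10 oocytes per sample was primed with oligo-dT and amplified by Smart-seq2. According to the study's methods and the submitters' processing notes, the authors mapped the reads to mm9 with TopHat2 2.1.1, kept uniquely mapped reads, computed FPKM over UCSC gene models with Cufflinks 2.2.1, and deposited FPKM values multiplied by an ERCC factor per library. Dividing by the recovered factor returned 100% of values to 6 significant digits. No counts are in the table, so depth per value is unknown and no count test was used. Between 30.9% and 38.6% of the genes of a library are listed at 0, which can be a failed estimate.

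Samples were grouped from their titles. The study's methods give a different age for the growing oocytes than the labels. The genes and lists were chosen with earlier results of these data known. A gene was kept where 1 library or more reached 1 FPKM (11502 genes). limma 3.58.1 (R 4.3.3) was fitted to log2(FPKM + 1), which understates changes of low genes, with 1 term per group over 12 libraries, eBayes with an intensity trend and Benjamini-Hochberg adjustment over all genes kept. The fit was tested on simulated data. An exact permutation test of 2 libraries against 2 cannot go below p = 0.333. Nothing states that replicates came from separate animals, so p-values measure the spread between libraries, which may be technical. Replicate numbers were not used as a block, because the deviations of same-numbered libraries correlated by -0.12 to 0.16 over 15 pairs of groups, above 0.1 in 4. The factor is 1 in both WT growing libraries, and the study's spike-in shares point to factors set against the WT growing library of the same number, so the scaling itself ties libraries by number. A shift common to all genes of a library does not enter these correlations.

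All 10 members are named with their values. Further m6A genes are named where they passed the test between genotypes. The genes most like Ythdf3 are the 5 with the highest correlation. Transcript features and sequences came from GENCODE M1 on NCBIM37 (mm9), in which 92.2% of kept genes had a coding transcript with a 3′ UTR; figures were drawn with matplotlib 3.10.9. Results were recomputed with no ERCC scaling, with median scaling, a pseudocount or floor of 0.1 FPKM, no filter, a mean of at least 5 FPKM, no trend, the replicate number as a block, fits to the 4 libraries of each stage, 3-fold between every pair of libraries, and leaving out each library. Their use on the further m6A and the targeted genes was chosen after seeing the data.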

Additional observations from a re-analysis of the deposited data

Results flagged for a closer look

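The change from growing to GV oocytes differed between the genotypes for 4 readers by the interaction term in limma. The difference on the log2 scale, Zar1/2-null minus WT, was -1.51 for Ythdf1, -1.19 for Ythdf2, -0.91 for Ythdf3 and -1.37 for Ythdc2, so each decreased more in Zar1/2-null oocytes. For Ythdf1 and Ythdf2 the growing level was above WT and the GV level below it, whereas for Ythdf3 both were below. The GV call for Ythdf2 was lost without ERCC scaling and with median scaling (log2 fold change -0.12 and -0.03), and that for Ythdf1 with median scaling. The difference for Ythdf3 was not called under either other scaling (limma adjusted p = 0.123 and 0.163), with a pseudocount of 0.1 FPKM or without any 1 of 6 of the 8 libraries.

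The change from GV to MII oocytes differed in the other direction for 5 members. The differences were 0.84 for Mettl3, 1.20 for Mettl14, 0.71 for Ythdf1, 0.84 for Ythdf2 and 1.25 for Ythdc2, so each decreased less in Zar1/2-null oocytes. Without ERCC scaling 1 of the 5 calls held (Ythdc2), and with median scaling 0. Ythdf1, Ythdf2 and Ythdc2 differed in both changes, which share the GV libraries. At MII, Ythdf1 and Ythdc2 were under 1 FPKM in both genotypes. Both were already low in Zar1/2-null GV libraries (1.64 and 1.07 FPKM for Ythdf1, 0.578 and 0.661 FPKM for Ythdc2), with little room to decrease further.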

How the results depend on the processing

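The counts of members called depended most on the ERCC scaling. Without it and with median scaling, respectively, growing oocytes had 1 and 1 lower, GV oocytes 4 and 3 lower, and MII oocytes 0 and 0 higher. The change from growing to GV had 1 and 1 lower in WT, and 1 and 1 higher with 4 and 3 lower in Zar1/2-null oocytes. The change from GV to MII had 2 and 3 higher with 5 and 0 lower in WT, and 1 and 2 higher with 2 and 1 lower in Zar1/2-null oocytes. The difference between the genotypes in that change had 1 and 0 higher with 2 and 2 lower. The 1 FPKM added before the logarithm was kept under each scaling, so calls of low genes can also change through their level relative to it.

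Under the same scalings some log2 fold changes turned positive. From growing to GV in Zar1/2-null oocytes, Ythdc1 was 0.51 and 0.55, and Mettl14 was 0.0043 with median scaling. From GV to MII in WT, Wtap was 1.03 and 1.39, Ythdf3 0.48 and 0.82, and Ythdc1 1.22 and 1.53, while Alkbh5 (0.21) and Fto (0.064) turned with median scaling. In Zar1/2-null oocytes, Mettl14 was 0.075 and 0.33, Wtap 0.78 and 1.06, Ythdf3 0.13 and 0.39, Ythdc1 0.29 and 0.55, and Fto 0.045 and 0.18, while Ythdf2 (0.037) turned with median scaling. Zc3h13 at GV was 0.00015 with median scaling.

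A pseudocount of 0.1 FPKM left 1 member higher in growing oocytes and 2 lower from growing to GV in WT, and ended the calls for Ythdf3 in the growth difference and for Ythdf1 in the maturation difference. No filter left 0 higher at MII. A mean of at least 5 FPKM leaves out Ythdf1, Ythdc2 and Fto by construction: it left 1 higher in growing, 3 lower at GV, 2 and 4 lower from growing to GV in WT and Zar1/2-null, 2 lower in the difference of that change, and 3 higher and 1 lower in the difference of the maturation change. The rule of 3-fold between every pair of libraries left 1 member lower at GV, Ythdf3. Where the cause is not given, the cause was not tested.

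The further m6A genes, recomputed after seeing the data, had 4 and 4 higher and 2 and 4 lower in growing oocytes without ERCC scaling and with median scaling, 0 and 1 higher and 4 and 3 lower at GV, and 1 and 1 higher and 8 and 8 lower at MII. In growing oocytes 0 were higher with a pseudocount of 0.1 FPKM, no filter, a mean of at least 5 FPKM or the libraries of the stage alone, and 5 lower with that pseudocount or that mean. With a mean of at least 5 FPKM, 7 were lower at GV and 3 at MII. No filter left 3 lower at MII, and the libraries of the stage alone left 1 higher there.

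Leaving out each library in turn, which assumes that the lone library of a group varies like the others, gave 1 to 2 members higher (1 without Zar1/2-null growing replicate 2) and in each case 2 lower in growing oocytes, 4 to 7 lower at GV, and in each case 0 higher, with 1 to 3 lower, at MII (1 without Zar1/2-null MII replicate 2), and 1 to 4 lower from growing to GV in WT (2 without WT growing replicate 1, 1 without WT GV replicate 2). The maturation difference had 3 to 5 higher (3 without WT GV replicate 1, WT MII replicate 2 or Zar1/2-null MII replicate 2) and 0 to 1 lower (1 without Zar1/2-null MII replicate 1). Of the further genes, 0 to 1 were higher (0 without Zar1/2-null growing replicate 2) and 4 to 6 lower (4 without that library or WT growing replicate 1) in growing oocytes, and 1 to 2 higher and 3 to 4 lower at MII.

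With the replicate number as a block, 1 member (Alkbh5) was lower in the maturation difference, 3 further genes were higher in growing oocytes, and Ythdc1 was called lower at GV (limma adjusted p = 0.0476). The deviations of same-numbered libraries correlated by -0.12 to 0.16, but a shift common to all genes of a library does not enter these correlations. They therefore cannot decide whether the numbers pair the libraries, because the deposited scaling factors were apparently set within each number. No call was lost with the block. The table gives no read counts, so the depth behind a low value, such as those of Ythdf1, Ythdc2 and Fto at MII, is not known.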
